A study of Mus musculus with 4 samples.

Results

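LncRNAs that were well detected in skeletal muscle were followed into the mitochondrial fraction of the same tissue. The group consisted of 77 genes of Ensembl lncRNA classes whose mean normalized count in the 2 remaining tissue libraries was at least 10. It was taken from 814 lncRNA genes and 16472 genes in all, and 8880 genes of any class reached the same floor. H19, Nctc1, Meg3, Rian and Kcnq1ot1 also reached the floor and were left out by name, so that 77 of 82 lncRNA genes were kept. The members were thus chosen by their measured levels in remaining tissue, which are given as a description only. A floor on remaining tissue also favours lower values in isolated mitochondria, so counts and medians over the 77 genes are set beside those of all 8880 genes that passed the same floor and support nothing on their own.

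RNA was sequenced from skeletal muscle of wild-type (WT) mice, with 2 libraries of isolated mitochondria and 2 libraries of the other group. The treatment label of that group describes tissue from which mitochondria had been removed, whereas its titles read SM-total and a legend of the study speaks of lysates of whole muscle. It is called remaining tissue here, and since these descriptions differ, whether fold changes are against depleted or whole tissue was not settled. No label says that the libraries came from separate animals, so p-values measure only the spread between these libraries. The labels give neither strain nor sex nor age of these mice, and a shorter fragmentation time used for mitochondrial RNA cannot be told apart from the groups. For heart, the study's methods also describe digitonin and RNase A treatment of isolated mitochondria and a low-speed pellet of debris as the rest fraction. Where such steps were used for muscle, they cannot be told apart from the groups either.

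LncRNAs are transcripts that are not translated into a known protein. Several of the best-known ones stay in the nucleus, where Malat1 accumulates in nuclear speckles and Neat1 builds the paraspeckles, while others act in the cytosol, bind microRNAs or RNA-binding proteins, or mainly serve as precursors of snoRNAs and microRNAs. Skeletal muscle fibres hold many nuclei in 1 cell.

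Depth set the resolution. Nuclear genes, without copies of mitochondrial ones, received 100924 and 181152 reads in isolated mitochondria, against an estimated 11986370 and 11965495 in remaining tissue. In isolated mitochondria 1 read was worth 9.05 normalized counts in replicate 1 and 5.06 in replicate 2, whereas remaining tissue had about 7.05 reads per normalized count. The limit that a count of 0 allows, 3 reads, therefore corresponded to a mean of 21.2 normalized counts, and 43 of the 77 genes lay under that value in remaining tissue already. In neither mitochondrial library did 50 of the 77 genes exceed 3 reads, and only 3 genes had at least 10 reads in both.

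Some of these RNAs are known for short sequences that they carry, which are shown here because the roles named below rest on them. On the same strand, 7 of the 77 genes enclose microRNA genes, and for 6 of them, on chromosomes other than 18, the mature sequences were read from RefSeq (GRCm38.p6). The capitals mark the seed, bases 2 to 8, which selects the targets. Mir99ahg and Mir100hg carry related sets in their introns, in which the miR-99a and miR-100 seeds are the same, and both hold a copy of miR-125b. The miR-99a sequence lies at chr16:77598940-77598961 and that of miR-100 at chr9:41531437-41531458, both on the plus strand.
mmu-miR-99a-5p (Mir99ahg): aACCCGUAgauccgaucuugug
mmu-miR-100-5p (Mir100hg): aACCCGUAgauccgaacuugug
mmu-miR-125b-5p (both): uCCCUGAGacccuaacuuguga
mmu-let-7c-5p (Mir99ahg): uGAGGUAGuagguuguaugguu
Dleu2 encloses the miR-15a and miR-16-1 genes, whose main products share a seed, and A330023F24Rik holds miR-29b-2 and miR-29c within its exons.
mmu-miR-15a-5p (Dleu2): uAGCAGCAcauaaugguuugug
mmu-miR-16-5p (Dleu2): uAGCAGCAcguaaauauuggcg
mmu-miR-29b-3p (A330023F24Rik): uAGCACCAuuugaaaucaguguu
mmu-miR-29c-3p (A330023F24Rik): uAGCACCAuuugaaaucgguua

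A second group of sequences lies in cytosolic lncRNAs. Oip5os1, known as Cyrano, carries a site of nearly full complementarity to miR-7 and is known to bring about decay of that microRNA. In its longest transcript (8300 nt, GENCODE M21) the best site ended at the seed match of bases 2952 to 2958, and 21 of the 23 bases of miR-7a-5p could pair there when the other arm was shifted by 2 bases. Capitals mark the seed of the microRNA and its match in the site.
mmu-miR-7a-5p: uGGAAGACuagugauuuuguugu
Oip5os1, bases 2933 to 2959: gaacaacaaaatcaccaatGTCTTCCa
2900097C17Rik, the mouse Norad gene, is known as a cytosolic decoy of Pumilio proteins. Its 4915 nt transcript held 11 copies of the Pumilio element TGTANATA on the sense strand, a number reached by only 5 of 8878 tested genes with a transcript. At least 1 copy was present in 22 of the 77 lncRNAs (28.6%) and in 32.5% of the tested genes. Copies 1, 6 and 11 are shown with the element in capitals.
2900097C17Rik, bases 640 to 669: tagaagtcctgTGTATATAatatgaaaaag
2900097C17Rik, bases 1818 to 1847: tgtgtgtatacTGTATATAatggacaaata
2900097C17Rik, bases 3515 to 3544: cagtgagaaagTGTACATAacggattggta

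The 77 genes comprised 29 lincRNAs, 25 antisense genes, 15 processed transcripts, 6 bidirectional promoter lncRNAs and 2 sense intronic genes. They were spread over 21 chromosomes, the sex chromosomes included, with at most 7 genes on 1 chromosome. Their exonic length ranged from 268 to 23898 nt with a median of 2916 nt, against a median of 5135 nt for the 8171 protein-coding genes that reached the floor. GC content of the longest transcript ranged from 34.5% to 69.7%, and 9 genes had a single exon. The locus of 48 of the 77 genes overlapped a gene on the opposite strand, and 3 genes (Gm47283, Gm10762 and Erdr1) are protein-coding in GENCODE M21. A stretch nearly identical to another gene was present in 31 of the 77, Malat1, Neat1 and Oip5os1 among them, and the assignment of reads in such stretches is uncertain. Most of the group was of low abundance, since the median mean level in remaining tissue was 19 normalized counts, against 36 for the protein-coding genes. Malat1 alone made up 67.5% of the summed mean level of the 77 genes in remaining tissue and 55.8% in isolated mitochondria.

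As a share of the reads of nuclear genes, the 77 lncRNAs took 0.892% and 0.812% in remaining tissue and 0.554% and 0.309% in isolated mitochondria. The 95% Wilson intervals in isolated mitochondria were 0.510% to 0.602% and 0.285% to 0.336%, which cover counting error only. Without Malat1 the shares were 0.296% and 0.258% in remaining tissue and 0.201% and 0.181% in isolated mitochondria. Both libraries of isolated mitochondria thus lay below both libraries of remaining tissue with and without Malat1. The floor on remaining tissue by itself favours this order, and the share of all genes above the floor is not given beside it. These shares do not depend on the size factors, but 2 libraries against 2 allow no exact two-sided permutation p below 0.333, so no test was made.

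Lower values in isolated mitochondria prevailed gene by gene. The mean was lower for 61 of the 77 genes and higher for 16, while it was lower for 65.8% of all tested genes, and the median log2 fold change was -2.12, against -0.69 for all 8880 tested genes. Fitted values of genes with 0 reads depend on the pseudocount, and with such genes set to their bound against 3 reads the medians were -1.13 and -0.60. For genes whose remaining tissue mean was under that limit, the bound allowed no decrease. In the fit with limma on log2(normalized count + 1), 19 of the 77 lncRNAs were lower at an adjusted p under 0.05 (24.7%), against 8.2% of all tested genes. None was higher, against 3.03% of all tested genes; at an unadjusted p under 0.05, 1 lncRNA was higher and 29 (37.7%) were lower, against 8.47% and 20.7% of all tested genes. Of the 19 genes called lower, 16 had 0 reads in both libraries of isolated mitochondria. Only 3 of the 60 lncRNAs with at least 1 read there were called lower, against 5.61% of all such tested genes. Of genes with 0 reads in both, limma called 16 of 17 lncRNAs and 244 of 245 tested genes lower. The excess of lower limma calls among the lncRNAs thus largely followed their share of genes at 0 reads, 22.1% against 2.76% of all tested genes. The test of edgeR on the recovered reads called 12 lncRNAs lower, of which 9 had reads, and 1 higher, against 8.48% and 10.1% of all tested genes. Both tests called 6 of the 77 genes lower. Both groups did not overlap for 46 genes that were lower and 1 that was higher, against 47.6% and 17.3% of all tested genes.

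**Figure D1:**
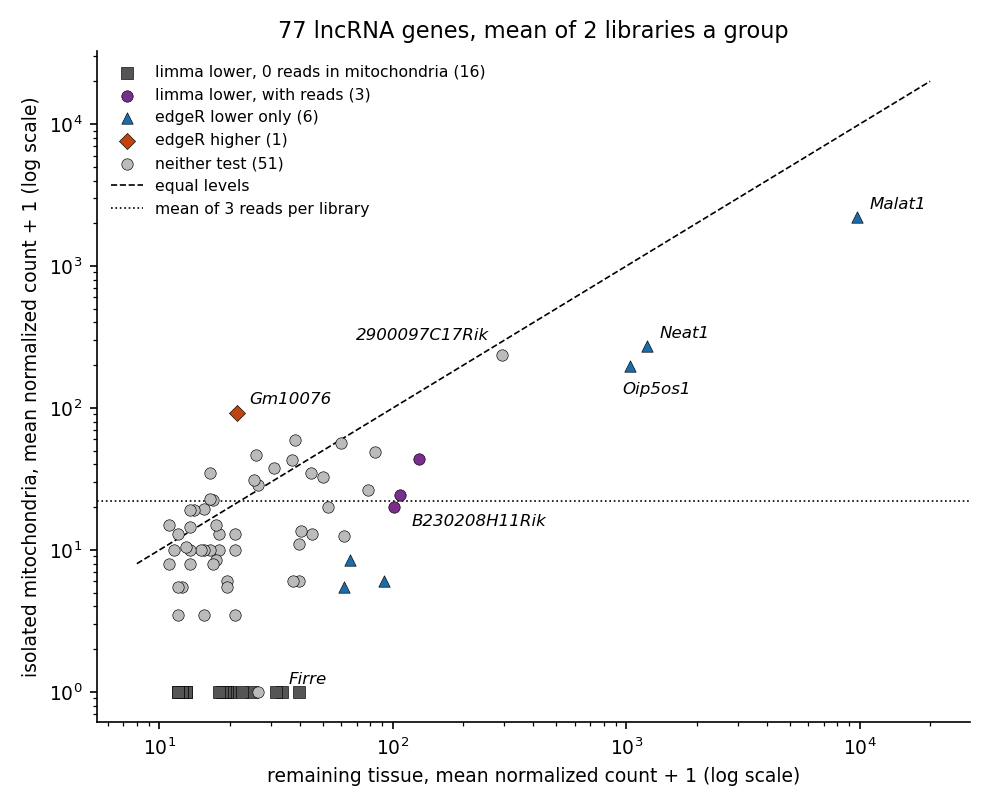
Mean normalized count + 1 of each of the 77 lncRNA genes in isolated mitochondria (vertical axis) against remaining tissue (horizontal axis), both on log scales, with 2 libraries a group. Symbols give the result of both tests, the dashed line marks equal levels, and the dotted line the mean of 3 reads per library; most genes lie below the dashed line, 17 lie at 0 reads in isolated mitochondria, and Gm10076 stands above.

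The call depended on single libraries. Leaving out isolated mitochondria replicate 1 raised the limma count from 19 to 53 lower and 4 higher, and leaving out replicate 2 gave 37 lower and 8 higher, with the lone library assumed to vary like the other group. Without replicate 1, 68.8% of the lncRNAs were lower against 44.0% of all tested genes, and without replicate 2, 48.1% against 49.7%, so that the excess over all genes was gone in the latter. Among all 8880 genes 1629 and 1512 were called higher in these fits. The median log2 fold change of the 77 genes was -2.34 and -1.45, respectively. Scaling also moved the reference. The median of all tested genes was -0.69 as deposited, -0.41 after scaling to the upper quartile and 0.17 after scaling to the total of nuclear genes, and the lncRNA median lay 1.44, 1.44 and 1.57 below these values. With quantile normalization the gap was 0.44, and with a pseudocount of 10 it was 0.53. The lncRNA median lay only 0.14 below the median of all genes after scaling to the total of all genes, mitochondrial ones included, where all 77 lncRNAs and 99.4% of all tested genes were lower. Among all tested genes, 269 were called higher and 728 lower as deposited, 31 and 8825 after scaling to the total of all genes, 614 and 371 with the nuclear total, 383 and 590 with the upper quartile and 406 and 318 after quantile normalization.

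The size of the difference depended on abundance. For lncRNAs with a remaining tissue mean of 10 to under 20 the median log2 fold change was -1.92 (39 genes), against -0.37 for all tested genes of that range. For a mean of 20 to under 50 it was -2.64 (23 genes) against -0.52, and for a mean of at least 50 it was -2.34 (15 genes) against -0.91. With genes at 0 reads set to their bound, the medians were -0.49 against -0.07 in the lowest range and -0.62 against -0.48 in the middle range. In the lowest range all 11 lncRNAs at 0 reads lay under the limit of 3 reads, so this bound allowed them no decrease. Genes at 0 reads made up 28.2% of the lncRNAs and 7.73% of all tested genes there. Among genes with at least 1 read in isolated mitochondria the medians of these ranges were -1.27 against -0.21 and -1.18 against -0.49. The size of the gap there thus depended on how genes without a read were treated. No lncRNA of the highest range had 0 reads in both libraries. All 15 of the most abundant lncRNAs had a lower mean in isolated mitochondria, as did 80.1% of all tested genes at that level. Of these 15, edgeR called 9 (60.0%) lower, against 20.6% of all tested genes at that level. In the lowest range edgeR called none of the 2380 tested genes lower and 248 higher, no lncRNA among them. Even the 184 genes of that range with 0 reads in both libraries of isolated mitochondria did not pass, so depth left edgeR no lower calls there.

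**Figure D2:**
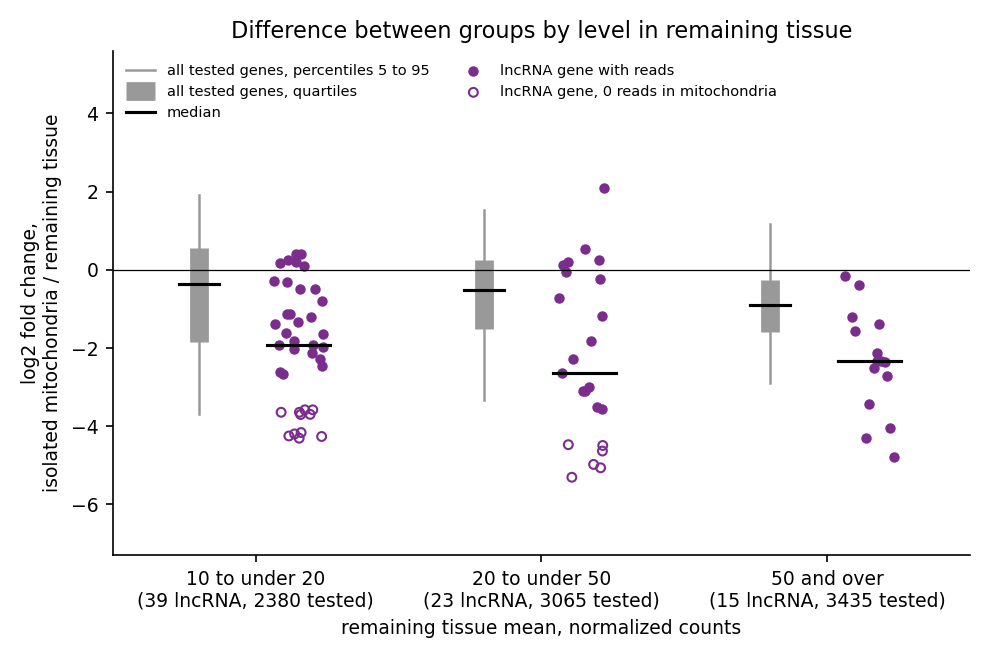
Log2 fold change of isolated mitochondria over remaining tissue (vertical axis) in 3 ranges of the mean normalized count in remaining tissue. Grey bars show the quartiles and lines the percentiles 5 to 95 of all tested genes, points are lncRNA genes (open, 0 reads in isolated mitochondria), and black lines are medians; the lncRNA medians of -1.92, -2.64 and -2.34 lie below those of all tested genes in each range, with open points low because of the pseudocount of 1.

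Nuclear and chromatin-associated lncRNAs included the most abundant ones. Malat1 (chr19:5795690-5802672), the speckle RNA, had 10127 and 9405 normalized counts in remaining tissue and 3221 and 1174 in isolated mitochondria, or 356 and 232 reads in the latter. Both mitochondrial libraries lay below the tissue, although they differed from each other more than the tissue libraries did. The log2 fold change was -2.33 ± 0.56 (SE), with an adjusted p of 0.102 in limma and 0.014 in edgeR. Neat1, encoded next to Malat1 (chr19:5824708-5845478), had 1469 and 975 normalized counts in remaining tissue and 407 and 137 in isolated mitochondria. It showed the same order of libraries, and the log2 fold change was -2.34 ± 0.64 (SE) with an adjusted p of 0.124 in limma and 0.014 in edgeR.

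Lncpint, a p53-induced lncRNA, had 90 and 123 normalized counts in remaining tissue and 27 and 20 in isolated mitochondria. The groups were apart, and it was called lower by both tests (log2 fold change -2.13 ± 0.32 (SE), adjusted p = 0.042 in limma and 0.034 in edgeR), on only 3 and 4 reads in isolated mitochondria. The limma call was lost without either remaining tissue library (adjusted p = 0.603 and 0.727) and without isolated mitochondria replicate 2 (adjusted p = 0.0507), with log2 fold changes of -2.35, -1.91 and -1.92. It was also lost after scaling to the nuclear total (log2 fold change -1.26, adjusted p = 0.112) and the upper quartile (adjusted p = 0.0699), after quantile normalization (adjusted p = 0.0615) and without the trend (adjusted p = 0.0644). Firre, a nuclear RNA of the X chromosome that organizes chromatin, had 29 and 32 normalized counts in remaining tissue and 0 reads in isolated mitochondria. Against the floor of 3 reads it was at least 1.44-fold lower, and both tests called it (adjusted p = 0.013 in limma and 0.036 in edgeR).

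Peg13, an imprinted transcript from an intron of Trappc9, had 59 and 44 normalized counts in remaining tissue and 18 and 20 in isolated mitochondria. These values did not overlap, yet neither test passed (adjusted p = 0.105 in limma and 0.244 in edgeR). Airn, which silences the imprinted Igf2r cluster, had 20 normalized counts in each remaining tissue library and a single read in isolated mitochondria. Its ratio of reads was 0.162 with an exact counting interval of 0.00409 to 0.911. Of the list of nuclear-retained and chromatin lncRNAs, 16 of 24 were in the table and 7 belonged to the 77 genes. Limma called 2 of these 7 lower and edgeR 4, against 8.2% and 8.48% of all tested genes, and neither called any higher. Dleu2, also on this list, had a slightly higher mean in isolated mitochondria (log2 fold change 0.12, adjusted p = 0.912 in limma). The median log2 fold change of the 7 was -2.33, or -2.13 with Firre at its bound.

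**Figure D3:**
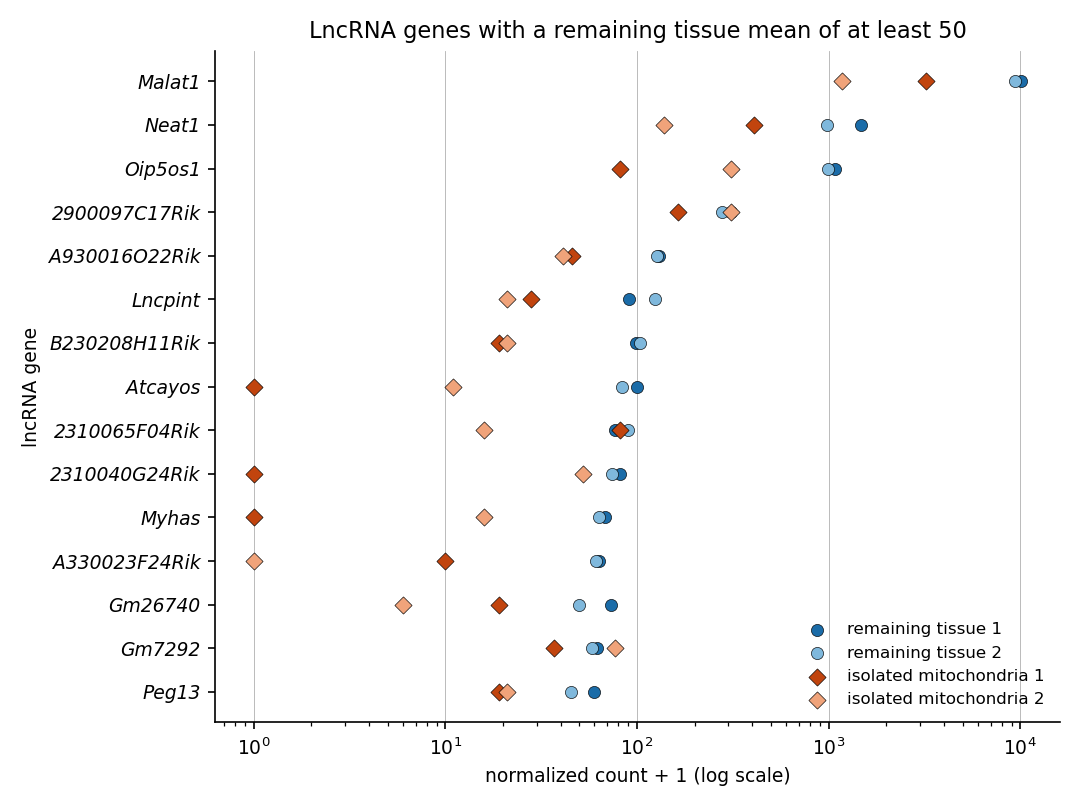
Normalized count + 1 (horizontal axis, log scale) in each of the 4 libraries for the 15 lncRNA genes with a remaining tissue mean of at least 50, circles for remaining tissue and diamonds for isolated mitochondria. Malat1, Neat1 and Oip5os1 lie lower in both mitochondrial libraries, while 2900097C17Rik, Gm7292 and 2310065F04Rik overlap between groups. Atcayos, 2310040G24Rik, Myhas and A330023F24Rik have 0 reads in 1 library.

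Among lncRNAs of the cytosol or of broad expression, the values went apart. Oip5os1, which carries the miR-7 site shown above (chr2:119594297-119607502), had 1083 and 996 normalized counts in remaining tissue and 81 and 309 in isolated mitochondria. Unlike Malat1 and Neat1, it was lowest in replicate 1, with 9 reads against 61 in replicate 2. The log2 fold change was -2.71 ± 0.73 (SE), with an adjusted p of 0.123 in limma and 0.011 in edgeR. 2900097C17Rik, the Norad gene with its 11 Pumilio elements (chr2:156388065-156392979), had 310 and 276 normalized counts in remaining tissue and 163 and 309 in isolated mitochondria. The groups overlapped, and neither test passed (log2 fold change -0.38 ± 0.37 (SE), adjusted p = 0.527 in limma and 0.868 in edgeR); after scaling to the total of nuclear genes the value was 0.51. The ratio of reads was 0.875 with an exact counting interval of 0.691 to 1.09, which does not include the 0.195 of Malat1 (0.180 to 0.212) or the 0.218 of Oip5os1 (0.170 to 0.276), although these intervals leave out the spread between libraries.

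Gm7292 shares a stretch of 2537 nt with 2900097C17Rik at 99.2% identity and held 9 Pumilio elements in 2527 nt. It had 61 and 57 normalized counts in remaining tissue and 36 and 76 in isolated mitochondria, again with overlap (adjusted p = 0.815 in limma). Since reads that align to several places were left out by the authors, the split of reads between both genes is uncertain, and they are not independent observations. B230208H11Rik had 98 and 103 normalized counts in remaining tissue and 18 and 20 in isolated mitochondria. It was called lower by both tests (log2 fold change -2.34 ± 0.25 (SE), adjusted p = 0.021 in limma and 0.010 in edgeR), on 2 and 4 reads. Without either remaining tissue library the limma call was lost (adjusted p = 0.658 and 0.663), as it was after scaling to the nuclear total (adjusted p = 0.0532). 1810026B05Rik, known as Chaserr and a neighbour of the Chd2 gene, had 18 normalized counts in both remaining tissue libraries and 0 reads in isolated mitochondria, which is under the floor of 3 reads per library; the exact counting interval of its ratio of reads ended at 0.669.

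Gm10076 was the only lncRNA of the 77 that was higher without overlap. This single-exon gene of 384 nt (chr14:105681828-105682211) had 18 and 23 normalized counts in remaining tissue and 72 and 111 in isolated mitochondria, from 8 and 22 reads. The log2 fold change was 2.08 ± 0.36 (SE), with an adjusted p of 0.057 in limma and 0.0023 in edgeR. With libraries scaled to their totals, mitochondrial genes included, its log2 fold change was -4.58, and all 77 genes were lower. Its sequence is nearly that of Rpl41, a ribosomal protein gene. Over 383 nt the identity was 99.5%, with 2 substitutions and no gap, written with the Rpl41 base first and counted from the start of the Rpl41 transcript as C317T and G424A. Rpl41 had 68 and 78 normalized counts in remaining tissue and 163 and 218 in isolated mitochondria, so its values also lay higher without overlap. The assignment of reads to Gm10076 is uncertain, because only reads over these positions tell the genes apart. Both windows of Gm10076 are printed with the base that differs in capitals.
Gm10076, bases 113 to 142: caagtaagccagccTgtgcacctacgacgc
Gm10076, bases 220 to 249: agtagacctggaacAtcacctcgccgcgat
In the list of cytosolic and broadly expressed lncRNAs, 5 genes belonged to the 77. Limma called 2 of them lower and none higher, against 8.2% and 3.03% of all tested genes. EdgeR called 2 lower and 1 higher, against 8.48% and 10.1%. The median log2 fold change of these 5 genes was -2.34. It was -0.38 with 1810026B05Rik at its bound, which allowed no decrease because its tissue level of 18 lay under the floor of 3 reads. The upper limit of 0.669 for its ratio of reads did not enter this median.

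LncRNAs of muscle were spread between both outcomes. A930016O22Rik, which overlaps the creatine kinase gene Ckm on the opposite strand (chr7:19417466-19421417), had 130 and 126 normalized counts in remaining tissue and 45 and 40 in isolated mitochondria. Replicates were close in both groups, and both tests called it lower (log2 fold change -1.57 ± 0.20 (SE), adjusted p = 0.028 in limma and 0.026 in edgeR), on 5 and 8 reads. The limma call was lost without either remaining tissue library (adjusted p = 0.628 and 0.589), after scaling to the upper quartile (adjusted p = 0.053) and to the nuclear total (adjusted p = 0.128).

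Myhas, an antisense transcript of the fast myosin heavy chain cluster on chromosome 11, had 67 and 62 normalized counts in remaining tissue and 0 and 15 in isolated mitochondria. Only edgeR called it lower (adjusted p = 0.035, limma 0.205), from 3 reads in all, and the ratio of reads was 0.151 with an exact counting interval of 0.0311 to 0.442. 2310065F04Rik, known as linc-MYH and located by the same cluster (chr11:67112461-67120080), had 76 and 89 normalized counts in remaining tissue and 81 and 15 in isolated mitochondria. Replicate 1 was at the level of tissue and replicate 2 far below (log2 fold change -1.20 ± 0.92 (SE), adjusted p = 0.438 in limma). 2310001H17Rik, with 14 and 11 normalized counts in remaining tissue and 36 and 0 in isolated mitochondria, lay on both sides of the tissue. Of the 4 muscle lncRNAs among the 77, limma called 1 and edgeR 2 lower, against 8.2% and 8.48% of all tested genes. The median log2 fold change of these 4 was -1.39.

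Precursors of small RNAs were mostly at the limit of detection. Gas5, whose introns yield snoRNAs, had 25 and 26 normalized counts in remaining tissue and 45 and 10 in isolated mitochondria. 1110038B12Rik, another snoRNA host, had 16 and 15 normalized counts in remaining tissue and 63 and 5 in isolated mitochondria. Both were above the tissue in replicate 1 and below it in replicate 2, and neither of these 2 hosts was called. The log2 fold change of Gas5 was -0.24 ± 0.85 (SE) and turned to 0.62 after scaling to the nuclear total and to 0.04 after scaling to the upper quartile.

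Of the listed microRNA hosts, Mir99ahg, Mir100hg, Dleu2 and Mir133a-1hg were among the 77 genes, and none of these 4 was called by limma or edgeR. Mir100hg had 52 and 46 normalized counts in remaining tissue and 63 and 0 in isolated mitochondria, from 7 and 0 reads. Its relative Mir99ahg, which encodes microRNAs with the same seeds, had 14 and 15 normalized counts in remaining tissue and 27 and 10 in isolated mitochondria. Dleu2, the host of miR-15a and miR-16-1, had 30 and 19 normalized counts in remaining tissue and 45 and 15 in isolated mitochondria. Mir133a-1hg, which encloses the genes of the muscle microRNAs miR-1a-2 and miR-133a-1, had 25 and 12 normalized counts in remaining tissue and 0 and 10 in isolated mitochondria. In Mir99ahg, Mir100hg and Dleu2 the mitochondrial libraries were farther apart than the tissue libraries.

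A330023F24Rik, whose exons hold miR-29b-2 and miR-29c, was the only one of the 7 hosts of microRNAs that a test called. It had 62 and 60 normalized counts in remaining tissue and 9 and 0 in isolated mitochondria, a single read in all. EdgeR called it lower (adjusted p = 0.013) and limma did not (adjusted p = 0.148), and the ratio of reads was 0.0532 with an exact counting interval of 0.0013 to 0.297. Across the 77 genes, 18 had isolated mitochondria libraries on both sides of the remaining tissue, 12 had 0 reads in replicate 1 only and 15 in replicate 2 only.

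In isolated mitochondria, 17 of the 77 lncRNAs (22.1%) had 0 reads in both libraries, against 2.76% of all tested genes. For 11 of them the remaining tissue mean was itself under the floor of 3 reads per library, so no fold is given, and limma called all 11 lower. The exact counting interval of the ratio of reads, which pools both libraries, ended under 1 for 5 of these 11 (at 0.634 to 0.708) and at 1.00 to 1.10 for the other 6, where a difference was not detectable at this depth. The 6 genes above the floor had upper limits of 0.312 to 0.560. Gm12224, with 39 and 38 normalized counts in remaining tissue, was at least 1.82-fold lower against the floor of 3 reads, and 5031425E22Rik, with 35 and 30, at least 1.54-fold lower. Both were called by limma (adjusted p = 0.013 each) and by edgeR (adjusted p = 0.019 and 0.033). Gm13938, with 27 and 21 normalized counts, and Gm10762, with 21 and 22, were called by limma only. Gm47283 on the Y chromosome, with 11 and 40, had unequal tissue libraries and was not called (adjusted p = 0.0508 in limma). The fitted log2 fold changes of these genes depend on the pseudocount and are not bounds.

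Antisense lncRNAs of muscle stood opposite some of the most abundant coding genes of the tissue. Exons of 27 of the 77 genes overlapped exons of a coding gene on the opposite strand, and 21 of these partners were in the table. The strand setting of the authors' counting was not stated, and reads that fell on several genes were left out. Reads in the overlap were therefore either assigned by strand or missing from both genes, and which of these applies was not settled. Gm13938 overlapped the titin gene Ttn over 91.9% of its 493 exonic nt, and A630019I02Rik overlapped Cmya5 over 82.0%. Ttn had 280729 and 251732 normalized counts in remaining tissue and 21482 and 15091 in isolated mitochondria, a log2 fold change of -3.88 ± 0.35 (SE). Next to it, Gm13938 stood at 0.00901% of the Ttn level in remaining tissue.

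Ckm, the partner of A930016O22Rik, had a log2 fold change of -1.95 ± 0.14 (SE) and was called lower by both tests, as the lncRNA was. Cmya5 was also called lower (log2 fold change -3.44), while A630019I02Rik, with 42 and 35 normalized counts in remaining tissue and 0 and 10 in isolated mitochondria, was not (adjusted p = 0.203 in limma). Gm26604, opposite the calcium release channel gene Ryr1, had 20 and 14 normalized counts in remaining tissue and 9 and 15 in isolated mitochondria, a log2 fold change of -0.49 ± 0.50 (SE), whereas that of Ryr1 was -3.49 ± 0.24 (SE). Gm12224 departed the other way, since its partner Acsl6 had 43 normalized counts in each remaining tissue library and 45 and 61 in isolated mitochondria. Atcayos, with 99 and 83 normalized counts in remaining tissue and 0 and 10 in isolated mitochondria, was called lower by edgeR (adjusted p = 0.0075), and its partner Atcay had 1 and 2 normalized counts in remaining tissue. The partner was the more abundant gene in remaining tissue in 16 of the 21 pairs. Over the 27 lncRNAs with such overlap the median log2 fold change was -2.12, and over the other 50 it was -2.08. Among those with reads in isolated mitochondria it was -1.82 (21 genes) and -1.34 (39 genes). With genes at 0 reads at their bound the median of the 27 was -1.39, which is not comparable with the -2.08 of the 50.

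**Figure D4:**
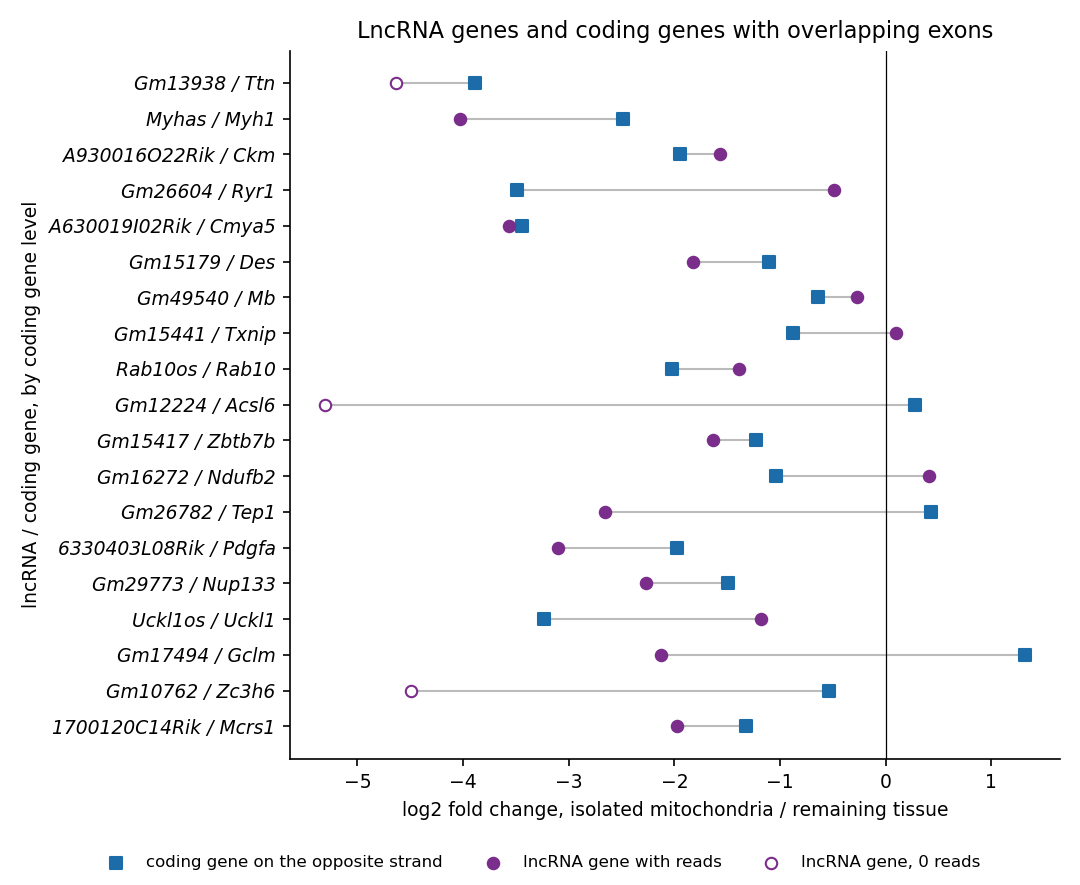
Log2 fold change of isolated mitochondria over remaining tissue (horizontal axis) for 19 lncRNA genes (circles, open for 0 reads in isolated mitochondria) and the coding genes whose exons they overlap on the opposite strand (squares), ordered from the most abundant coding gene down. A630019I02Rik and Cmya5 lie close together (-3.57 and -3.44), while Gm26604 and Ryr1 (-0.49 and -3.49) and Gm12224 and Acsl6 (-5.30 and 0.28) lie apart.

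Per length, the order in remaining tissue differed from that of the counts. Malat1 was first with 1399 normalized counts per kb of exons, followed by Gm11280 with 164, Oip5os1 with 125, 2310040G24Rik with 99.4 and B230208H11Rik with 87.9. 2900097C17Rik with 59.6 and Neat1 with 58.8 per kb came next and did not differ beyond the spread of Neat1, whose libraries gave 70.7 and 46.9. The long precursor Mir99ahg was lowest of the 77 with 1.01 per kb. 2310040G24Rik, high in this order, had 81 and 73 normalized counts in remaining tissue and 0 and 51 in isolated mitochondria, so its libraries of isolated mitochondria disagreed (adjusted p = 0.368 in limma).

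At the floor the choice was narrow. 2310015A10Rik and AU020206 at a mean of 10.0 and Rab10os at 10.5 lay just inside, and 8 lncRNA genes at 9.5, among them Mir22hg, Gm50194 and Gm8378, just outside. Mir22hg had 10 and 9 normalized counts in remaining tissue and 0 reads in isolated mitochondria, AU020206 10 in both remaining tissue libraries and 18 and 10 in isolated mitochondria. These 6 genes had 0 to 27 normalized counts in the libraries of isolated mitochondria.

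Other genes of the tissue also moved between the groups. All 8 markers of skeletal muscle fibres were called lower in isolated mitochondria by limma, with a median log2 fold change of -2.11 and a summed level of 273332 and 284571 against 47281 and 44626 normalized counts. The 3 fibroblast markers were called higher (761 and 799 against 4307 and 7219), and the macrophage markers, of which 1 of 3 was tested and called higher, summed to 33 and 40 against 289 and 278. Endothelial markers summed to 372 and 364 against 54 and 80, and limma called 1 of the 3 lower. Schwann cell markers summed to 45 and 30 against 9 and 20, and erythroid markers to 87 and 91 against 36 and 25. Adipocyte markers summed to 57 and 222 against 54 and 111. Of the neuronal markers only Rbfox3 was in the table, with 0 in remaining tissue and 471 and 648 in isolated mitochondria. The 12 ubiquitous nuclear coding genes went both ways, from -1.63 for Gapdh to 3.06 for Eef1a1 with a median log2 fold change of -0.04, and limma called 1 lower and 2 higher and edgeR 1 lower and 4 higher. In tissue, fewer cells of a type and less RNA per cell cannot be told apart, and the part of these shifts in the lncRNA values was not tested.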

How the data were processed

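Gene counts of 4 libraries of total RNA (2 isolated mitochondria, 2 remaining tissue of skeletal muscle) were used. Per the labels and the study's methods, reads were cleaned with Trimmomatic 0.39 by the authors, placed on GRCm38 (mm10) with STAR 2.7.10a, counted with featureCounts 2.0.2 and left out if they had several alignments or genes. Versions are those of the submitters' processing notes. In the deposited table each value is a signal, namely the count divided by a DESeq2 1.30.1 size factor and rounded, called normalized count here. Low values of isolated mitochondria were whole multiples of 1 read (99.9% and 100% of values under 2000, within 0.75 normalized counts), whereas reads of remaining tissue were estimated.

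All 8880 genes with a remaining tissue mean of at least 10 were tested with limma 3.58.1 (eBayes with trend, R 4.3.3), two-sided, on log2(normalized count + 1), with Benjamini-Hochberg adjustment and a threshold of 0.05. On this scale the pseudocount damps the change of low genes with reads, while libraries at 0 reads give large negative values that larger pseudocounts make smaller. EdgeR made them smaller for genes at 0 reads in 1 library, such as Myhas (-4.03 in limma, -2.40 in edgeR). For genes at 0 reads in both libraries edgeR values were more negative, as for Gm12224 (-5.30 in limma, -10.1 in edgeR). EdgeR 4.0.16 (quasi-likelihood) and DESeq2 1.42.0 were run on the recovered reads. Ratios of reads divide by the summed size factors, with exact 95% intervals. Overlaps and sequences came from GENCODE M21, in which the 77 genes were all found, and near-identical stretches (at least 50 nt, 95% identity) from BLAST 2.17.0. The members, lists and tests were chosen with earlier results of these data known. Named genes were the members of the role lists, the 10 most abundant and the 5 with the largest called change in each direction. Those next to the floor and up to 4 at 0 reads were also named. A330023F24Rik, Gm7292, Gm47283, Gm26604, A630019I02Rik, Gm11280, Erdr1, Rpl41 and the coding partners were chosen after their values were seen.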

Additional observations from a re-analysis of the deposited data

How the results depend on the processing

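With 19 lncRNAs lower and 0 higher as reported, the count of lower genes was 3 with a floor of 20 on the mean of the 4 libraries (10.0% of the 30 lncRNAs tested, against 9.30% of all genes), 77 after scaling to the total of all genes, 7 after quantile normalization (9.09% against 3.58%), 12 with edgeR and 9 with DESeq2 (11.7% against 8.95%), which gave no adjusted p for 39 genes. It was 3 among the 60 lncRNAs with at least 1 read in isolated mitochondria, against 5.61% of all such tested genes. This alternative was chosen after seeing the data. The count of higher genes was 1 with a pseudocount of 10, the floor of 20, no filter, scaling to the nuclear total or the upper quartile, quantile normalization and edgeR, and 2 with DESeq2. Leaving out 1 library gave 17 to 53 lower and 0 to 8 higher, against 252 to 4414 lower and 23 to 1629 higher of 8880 genes; without isolated mitochondria replicate 2 the lncRNA share of lower calls (48.1%) was under that of all genes (49.7%). The median log2 fold change of -2.12 was -1.22 and -0.97 with pseudocounts of 5 and 10, -6.98 and -1.39 after scaling to the totals of all and of nuclear genes, -0.60 after quantile normalization, -1.18 with edgeR and -1.23 with DESeq2, and -2.34 to -1.45 without 1 library.

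With the replicate number as a replicate block 0 lncRNAs were lower. The labels share only the numbers, so the numbers were not taken as pairs. Deviations of same-numbered libraries had a correlation of 0.0208 over 8880 genes. With a median of 3 and 6 reads per tested gene in isolated mitochondria, counting noise can hide such a correlation, so pairs were not excluded.

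Values of single genes turned sign as follows. After scaling to the total of all genes, Dleu2 was at -6.27, 1110038B12Rik at -5.89, Mir99ahg at -5.99 and Gm10076 at -4.58. Gas5 was at 0.62 (nuclear total), 0.0385 (upper quartile), 0.22 (quantile), 0.18 (edgeR) and 0.28 (DESeq2). 2310001H17Rik was at 1.37 (quantile), 0.40 (edgeR) and 0.79 (DESeq2), and 2900097C17Rik at 0.51 (nuclear total), 0.17 (quantile), 0.0887 (edgeR) and 0.0817 (DESeq2). Without 1 library, Dleu2 ranged from -0.64 to 0.89, Gas5 from -1.27 to 0.80, 1110038B12Rik from -1.46 to 1.96, Mir100hg from -5.64 to 0.36, Mir99ahg from -0.49 to 0.85, 2310001H17Rik from -3.75 to 1.46 and 2900097C17Rik from -0.84 to 0.0789. Of 433 values of 28 named lncRNAs under the alternatives, 320 kept direction and side of the threshold; the cause of the other changes was not tested. Depth in isolated mitochondria limits most single genes.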
